A study of Macaca mulatta with 10 samples.

Results

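The SLC25 genes encode the mitochondrial carriers, and their transcripts were followed here in liver of rhesus macaques (Macaca mulatta) after brain death. Members were all probe sets of a 1-colour oligonucleotide array whose platform annotation gives exactly 1 gene symbol starting with SLC25. This rule uses names alone and found 58 of 52865 probe sets, which stand for 36 genes. Each animal gave 1 array, and 5 brain-dead donors were compared with 5 living control donors. A catheter balloon under the skull, outside the dura, was slowly inflated to cause brain death, which lasted 6 h per the sample labels, or 5 h per the series' design text. Fluid and vasopressin, dopamine or both kept up the blood pressure. Control animals were sedated, anaesthetised and ventilated for 1 h, so that brain death, ventilation time and drugs cannot be told apart here. The control group held 3 females and 2 males aged 4 to 20 years, and the brain-dead group 2 females and 3 males aged 7 to 18 years, with 1 age not given.

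SLC25 proteins are small membrane proteins, most of them in the inner mitochondrial membrane, that exchange metabolites between the cytosol and the matrix. In liver they link compartments that share a pathway. The urea cycle needs ornithine, citrulline and aspartate to cross the inner membrane, gluconeogenesis and lipogenesis need malate, citrate and phosphate to do so, and oxidative phosphorylation needs ADP, ATP and phosphate. Some relatives sit in peroxisomes or in the outer mitochondrial membrane.

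The deposited value is a signal per probe set on a linear scale, and changes are given as the difference of mean log2 signals, brain-dead minus control, with the standard error (SE) of limma and n = 5 animals per group. Tested were probe sets with a signal higher than the array median, which was 175 to 227, in 5 or more of the 10 animals. Of the 58 SLC25 probe sets 49 passed this filter, and of the 36 genes 30. Each gene was represented by its tested probe set with the highest mean. Of those 30 genes, 26 lay above the median on all 10 arrays, while SLC25A14, SLC25A21, SLC25A24 and SLC25A42 did so on fewer. The tissue label was checked with hepatocyte markers. APOA1, APOB, FGB, HPD, SERPINA1 and TAT were all above the filter, with a summed signal of 414992 to 536961 in controls and 368894 to 418079 in brain-dead animals. Each of the 6 had a change below 0 (median -0.30) and none passed the test. In whole tissue, fewer cells of a type and less RNA per cell cannot be told apart. Both animals numbered 1 lay apart from the others in earlier results of these data, so each gene called below was also tested without them.

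After brain death, 4 carriers of amino acids were lower, a mitochondrial iron carrier was higher, and none of the adenine nucleotide and phosphate carriers passed the test. Of 30 SLC25 genes tested, limma called 5 lower and 1 higher, its p-values being adjusted by Benjamini and Hochberg's method over every probe set tested and the threshold 0.05, while 24 did not pass. Those that fell were SLC25A15, SLC25A18, SLC25A13, SLC25A29 and SLC25A30, and the one that rose was SLC25A28. Among all 9835 genes tested, 3.87% fell and 2.90% rose, against 16.7% and 3.33% of the SLC25 genes. By probe set, 9 of 49 fell and 3 rose, where 3.39% of all probe sets fell, 2.72% rose and 6.10% did either. The median change of the 30 genes was -0.16, that of all genes -0.01, and 19 of the 30 (63.3%) had a change below 0, as had 50.5% of all genes. In 6 of the 30 genes the 5 animals of one group all lay on the same side of the other 5, 5 lower and 1 higher, against 7.80% of all genes, 4.15% lower and 3.65% higher. How many genes were called depended on which arrays were used, among the SLC25 genes and among all genes. Each called SLC25 gene kept the sign of its change in every alternative setting. That of SLC25A18 lay between -1.56 and -1.12, and that of SLC25A28 between 0.96 and 1.26. Of all 9835 genes 666 were called in either direction. Without control animal 1, 2 or 3 it was 357, 275 and 300. Leaving out brain-dead animal 3, 4 or 5 gave 382, 350 and 277. The number was 496 without control animal 5, and 544 or 727 without brain-dead animal 1 or 2. Without the pair numbered 1 it was 294. Without control animal 4 it was 932, and 8 SLC25 genes were called. The number of SLC25 genes that fell was 3 when control animal 1 or 3 was left out, and 2 when control animal 2 was. It was 2 and 3 when brain-dead animal 4 and 5 were left out, and 1 without the pair numbered 1. SLC25A28 was the only rise, and none was called higher on leaving out any 1 of control animals 1 to 3, or of brain-dead animals 1, 4 and 5. The number of probe sets called, 12 in all, was 6, 3 and 5 on leaving out control animal 1, 2 or 3, and 7, 4 and 5 on leaving out brain-dead animal 1, 4 or 5.

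**Figure D1:**
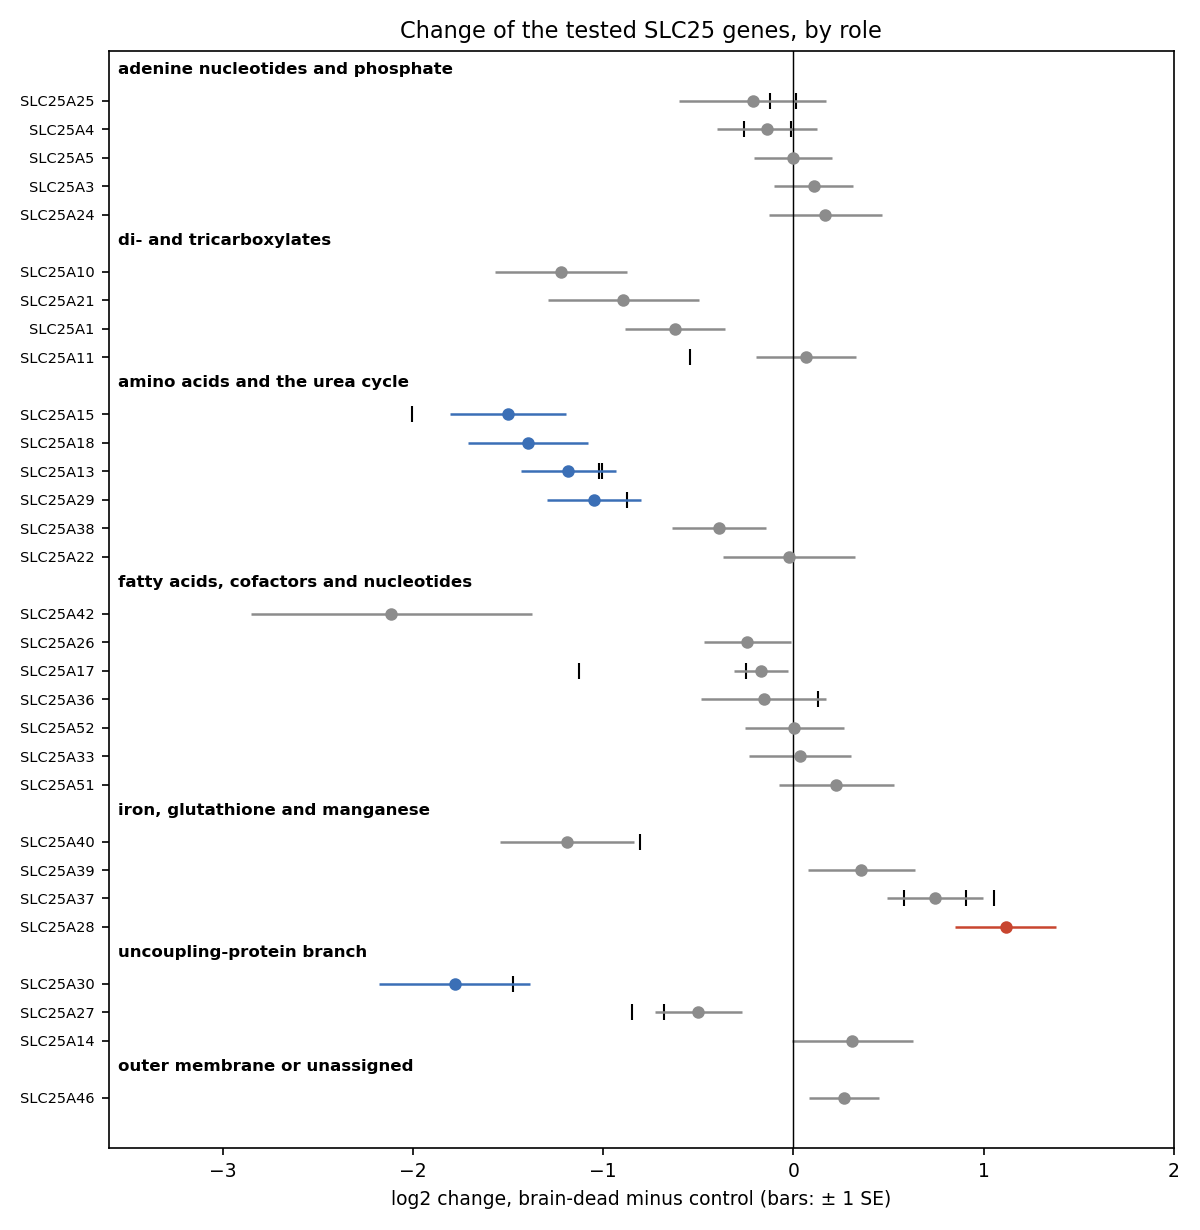
Log2 change (brain-dead minus control) of the 30 tested SLC25 genes, grouped by role; points are the representing probe set, bars ± 1 SE of limma with 5 animals per group, and vertical ticks the other tested probe sets of the gene. Blue points fell and the red point rose at an adjusted p under 0.05, grey points did not pass; 4 of the 5 that fell carry amino acids.

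Among the carriers of amino acids 4 of 6 tested genes fell, where 3.87% of all genes did, none rose and the median change was -1.12. The count was 2 without control animal 2 or without brain-dead animal 4, and 1 without the pair numbered 1. The 6 hepatocyte markers had changes from -0.53 to -0.16 beside them, and their part in these falls was not tested. SLC25A15 is the ornithine carrier, which brings ornithine into the matrix for the urea cycle. Its probe set MmugDNA.23494.1.S1_at had signals of 5364, 6789, 3360, 5314 and 6751 in control animals 1 to 5 and of 1674, 2944, 2592, 1894 and 1003 in brain-dead animals 1 to 5. Every brain-dead animal lay below every control, with brain-dead animal 5 lowest and control animal 3 the nearest control. The change was -1.50 ± 0.30 (limma, adjusted p = 0.0159), a signal 2.83-fold higher in controls. The other SLC25A15 probe set fell as well, by 2.01 ± 0.42 on the log2 scale (limma, adjusted p = 0.0187), with control animals 1 and 2 at 12864 and 9797 and the other controls at 3670 to 4165. The call of the former ended without both animals numbered 1 (limma, adjusted p = 0.0597; all alternatives 0.0107 to 0.0597) and that of the latter without control animal 2 (0.0512, range 0.00575 to 0.0512). SLC25A2, the second ornithine carrier, lay below the filter with signals of 7.98 to 146 over the 10 arrays.

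SLC25A13, known as citrin, exchanges aspartate for glutamate, and serves both the malate-aspartate shuttle and the supply of aspartate to the urea cycle. Its signals were 14544, 12819, 11994, 12640 and 11018 in control animals 1 to 5 and 7490, 8004, 5846, 4473 and 3279 in brain-dead animals 1 to 5. The controls lay close together, and the groups did not overlap. The change was -1.18 ± 0.25 (limma, adjusted p = 0.0188), and it passed in all 24 alternatives (range 0.00953 to 0.0475). The 2 other probe sets of SLC25A13 had changes of -1.01 ± 0.29 and -1.02 ± 0.38, both short of the threshold (limma, adjusted p = 0.0580 and 0.122). SLC25A12, the aspartate/glutamate carrier of other tissues, is not analysed here.

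SLC25A18 carries glutamate into mitochondria together with a proton. Its signals were 12019, 7610, 9508, 5236 and 8965 in control animals 1 to 5 and 4152, 3549, 4567, 3254 and 1483 in brain-dead animals 1 to 5. The groups did not overlap, although control animal 4 and brain-dead animal 3 were close. The change was -1.39 ± 0.32 (limma, adjusted p = 0.0240). The call ended without any 1 of control animals 1, 2 and 3, without brain-dead animal 4 and without the pair numbered 1 (limma, adjusted p = 0.0571, 0.0525, 0.0588, 0.0508 and 0.0626; all alternatives 0.0128 to 0.0626). SLC25A22, the other glutamate carrier, had signals of 739 to 2309 in controls and 1077 to 2211 in brain-dead animals, with a change of -0.03 ± 0.35 and a 95% interval from -0.77 to 0.72. The difference between the changes of these glutamate carriers was not tested.

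SLC25A29 carries basic amino acids, above all arginine and lysine. It had signals of 1165, 1248, 1081, 2571 and 1762 in control animals 1 to 5 and of 647, 764, 704, 667 and 807 in brain-dead animals 1 to 5. All brain-dead animals lay below the lowest control and within a narrow range, while control animals 4 and 5, the males, were the highest. In the other probe set control animal 1, a female, lay above control animal 5 (1643 and 1394). The change of the representing probe set was -1.05 ± 0.25 (limma, adjusted p = 0.0277), and the other probe set fell by 0.87 ± 0.24 on the log2 scale (limma, adjusted p = 0.0466). The former lost its call with median centring and without any 1 of control animals 2 and 5 or of brain-dead animals 1, 3, 4 and 5, and without the pair numbered 1 (limma, adjusted p = 0.0629, 0.0507, 0.0557, 0.0509, 0.0559, 0.0623, 0.0527 and 0.0633; all alternatives 0.0147 to 0.0633). The latter lost it under 16 of 23 alternatives (limma, adjusted p from 0.0265 to 0.154). SLC25A38, the glycine carrier that feeds haem synthesis, had a change of -0.39 ± 0.25, short of the threshold, and its probe set may bind several transcripts by its design (suffix _s_at). SLC25A48 lay below the filter, with signals of 28.7 to 197.

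**Figure D2:**
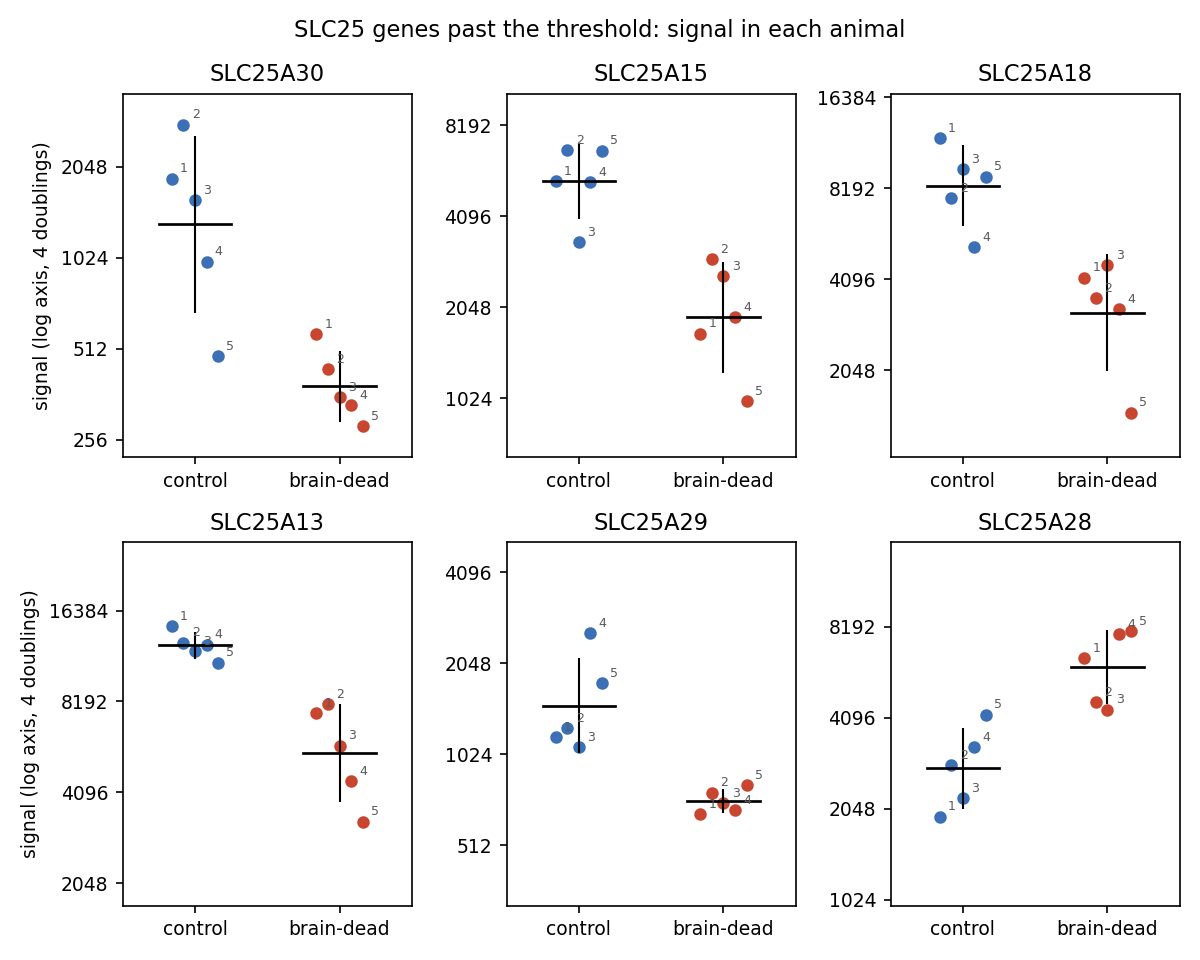
Signal (log axis spanning 4 doublings in every panel) of the 6 SLC25 genes past the threshold in each of 5 control and 5 brain-dead animals; digits give the animal number, horizontal lines the mean and vertical lines ± 1 SD of the log2 signal. Groups do not overlap in SLC25A15, SLC25A18, SLC25A13, SLC25A29 and SLC25A28, while in SLC25A30 control animal 5 (484) lies below brain-dead animal 1 (573).

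SLC25A30 belongs to the branch of the family that holds the uncoupling proteins. Its signals were 1873, 2828, 1590, 995 and 484 in control animals 1 to 5 and 573, 439.7, 355, 333 and 284 in brain-dead animals 1 to 5. Controls spread widely, and control animal 5 lay below brain-dead animal 1. The change of SLC25A30 was -1.78 ± 0.40 (limma, adjusted p = 0.0226), or -1.64 with a pseudocount of 64. The other probe set, whose groups did not overlap, fell by 1.48 ± 0.39 on the log2 scale (limma, adjusted p = 0.0409), but lost its call under 9 of 22 alternatives (0.0145 to 0.126). Its signals were 252 to 949 in controls and 147 to 241 in brain-dead animals, and the controls alone carried it past the filter. Brain-dead animals 1, 4 and 5, at 207, 155 and 147, lay below their array medians of 215, 175 and 178. The call of the representing probe set ended without any 1 of control animals 1, 2 and 3 or of brain-dead animals 4 and 5, and without the pair numbered 1 (limma, adjusted p = 0.0562, 0.0545, 0.0551, 0.0519, 0.0599 and 0.0617; all alternatives 0.00713 to 0.0617). In the same branch, the 3 probe sets of SLC25A27, also called UCP4, had changes between -0.85 and -0.50 that missed the threshold, and SLC25A14, also called UCP5, had a change of 0.31 ± 0.32. UCP2, the uncoupling protein of many cell types that bears no SLC25 symbol, had changes of -0.29, 0.06 and 0.06 in its 3 probe sets, none past the threshold.

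Across the 5 genes that fell, brain-dead animal 5 had the lowest signal of all 10 animals in SLC25A13, SLC25A15, SLC25A18 and SLC25A30, and the highest of the brain-dead animals in SLC25A29. Set against each gene's mean over the 10 arrays, the median deviation of the 30 SLC25 genes lay between 0.075 and 0.295 on the log2 scale in controls and between -0.310 and -0.012 in brain-dead animals. The same median over all 9835 genes lay between -0.031 and 0.070 in controls and between 0.003 and 0.058 in brain-dead animals.

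Of the 4 tested carriers of iron and glutathione 1 rose, SLC25A28, and none fell, where 2.90% of all genes rose, and the median change was 0.55. SLC25A28 and SLC25A37 are the mitoferrins, which bring iron into the matrix for haem and iron-sulphur clusters, SLC25A37 mainly in erythroid cells and SLC25A28 in most others. SLC25A28 had signals of 1929, 2854, 2215, 3281 and 4201 in control animals 1 to 5 and of 6476, 4610, 4360, 7775 and 7937 in brain-dead animals 1 to 5. Every brain-dead animal lay above every control, control animal 5 and brain-dead animal 3 being the closest. The change was 1.12 ± 0.27 (limma, adjusted p = 0.0293), a 2.17-fold higher signal, from a single probe set. The call ended without any 1 of control animals 1, 2 and 3 or of brain-dead animals 1, 4 and 5, and without the pair numbered 1 (limma, adjusted p = 0.0642, 0.0650, 0.0746, 0.0521, 0.0714, 0.0759 and 0.0969; all alternatives 0.0118 to 0.0969).

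SLC25A37 was measured by 4 tested probe sets, all with a change above 0. The brightest, which represents the gene, had signals of 1049, 2328, 1625, 1239 and 1356 in control animals 1 to 5 and of 2243, 3389, 2748, 1905 and 2218 in brain-dead animals 1 to 5. Control animal 2 lay among the brain-dead animals, and the change of 0.75 ± 0.25 did not pass (limma, adjusted p = 0.0951). Probe sets MmugDNA.39346.1.S1_at and MmugDNA.7973.1.S1_at rose, by 0.91 ± 0.24 and 1.05 ± 0.28 (limma, adjusted p = 0.0451 and 0.0411), and the last, at 0.58 ± 0.25, did not pass (0.176). Both calls were lost under 12 alternatives, of 23 and 22 (limma, adjusted p from 0.0193 to 0.113 and from 0.0129 to 0.103). A further probe set of SLC25A37 lay below the filter, with signals of 94.5 to 412.

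Neutrophil and erythroid markers were read beside the mitoferrins. Of 10 neutrophil markers 8 were on the array and 5 above the filter, of which the calgranulins S100A8 and S100A9 rose. The summed signal of the 8 was 1208 to 6458 in controls and 8310 to 57730 in brain-dead animals. Without these calgranulins the sum was 904 to 1599 in controls and 1027 to 2083 in brain-dead animals, and ELANE, FPR1 and CSF3R did not pass. MPO, MMP8 and S100A12 lay below the filter, although MMP8 (54.0 to 87.1 in controls, 145 to 692 in brain-dead animals) and S100A12 (21.3 to 78.8 and 103 to 343) did not overlap between the groups. Of 8 erythroid markers 4 were on the array and 2 above the filter, ALAS2 and HBB, neither of which passed. The summed signal of all 4 on the array was 1491 to 6353 in controls and 1140 to 4176 in brain-dead animals. The part of either cell type in the mitoferrin signals was not tested. No tested marker was called among those of macrophages and Kupffer cells (9), of T, NK and B cells (3), of endothelial cells (7), of stellate cells and fibroblasts (3) and of cholangiocytes (2). Most of the endothelial and macrophage markers nevertheless had changes below 0. These were 6 of 7 endothelial markers (median -0.65), with VWF at -1.86, PECAM1 at -0.76, STAB2 at -0.69 and TEK at -0.65, and 8 of 9 macrophage markers (median -0.36). The endothelial sum was 17176 to 32706 in controls and 15282 to 25471 in brain-dead animals, and the macrophage sum 52725 to 91521 and 32030 to 84896. Their part in the lower SLC25 signals was not tested.

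SLC25A39 and SLC25A40, a pair of close relatives of which SLC25A39 brings glutathione into mitochondria, had changes of opposite sign that did not pass. SLC25A39 had a change of 0.36 ± 0.28, with signals of 1497 to 3270 in controls and 1937 to 4302 in brain-dead animals. SLC25A40 had signals of 2442, 2006, 1866, 931 and 2185 in control animals 1 to 5 and of 576, 1555, 1141, 572 and 511 in brain-dead animals 1 to 5, so that control animal 4 lay inside the brain-dead range. The change was -1.19 ± 0.35 (limma, adjusted p = 0.0620). In the other SLC25A40 probe set the groups did not overlap (785 to 936 in controls, 282 to 779 in brain-dead animals) and the change was -0.81 ± 0.26 (limma, adjusted p = 0.0782). SLC25A40 passed under 6 of 24 alternatives, without control animal 4 among them, with a change of -1.43 (limma, adjusted p = 0.0227, range 0.0227 to 0.202).

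None of the 4 tested carriers of di- and tricarboxylates passed, although 3 had a change below 0 and their median was -0.76. SLC25A10, which exchanges malate or succinate for phosphate, came closest, with a change of -1.22 ± 0.35 (limma, adjusted p = 0.0535). Its signals were 1089, 2334, 2909, 843 and 1389 in control animals 1 to 5 and 643, 705, 833, 863 and 384 in brain-dead animals 1 to 5. Brain-dead animal 4 lay above control animal 4, and the other controls lay above all brain-dead animals. SLC25A10 passed under 6 of 24 alternatives, among them without control animal 4, with a change of -1.44 (limma, adjusted p = 0.0223, range 0.0223 to 0.131).

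SLC25A1 exports citrate, the carbon source of fatty acid synthesis, to the cytosol. Its signals were 12684, 15977, 16838, 6238 and 14639 in control animals 1 to 5 and 8158, 9359, 6675, 8438 and 8393 in brain-dead animals 1 to 5. Control animal 4 was lower than all brain-dead animals, and the other 4 controls were higher than all of them. The change was -0.62 ± 0.26 (limma, adjusted p = 0.174), and -0.87 without control animal 4, where it passed (0.0185; all alternatives 0.0185 to 0.329). SLC25A11, the 2-oxoglutarate/malate carrier and partner of citrin in the malate-aspartate shuttle, had changes of 0.07 ± 0.26 and -0.54 ± 0.39 in its 2 probe sets. SLC25A21, the carrier of 2-oxoadipate in lysine and tryptophan breakdown, had a change of -0.89 ± 0.40, short of the threshold. SLC25A34 and SLC25A35, whose substrates are poorly known, lay below the filter. SLC25A34 had signals of 20.6 to 484 in controls and 9.68 to 19.9 in brain-dead animals, and the groups did not overlap, but only control animal 1, at 484, lay above its array's median. SLC25A34 was picked with its values in view.

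None of the 5 tested carriers of adenine nucleotides and phosphate, which supply ATP synthesis, passed. SLC25A5, an ADP/ATP carrier, had signals of 24043, 50071, 32030, 44997 and 32795 in control animals 1 to 5 and of 32416, 37620, 34612, 37659 and 35365 in brain-dead animals 1 to 5. The brain-dead animals all lay within the range of the controls, and the change was -0.0035 ± 0.20 with a 95% interval from -0.44 to 0.44. The phosphate carrier SLC25A3 had a change of 0.11 ± 0.21 (95% interval from -0.34 to 0.56), with signals of 18088 to 38079 in controls and 24554 to 32669 in brain-dead animals. SLC25A4, the ADP/ATP carrier of heart and muscle, had changes from -0.26 to -0.02 in its 3 probe sets, and for the representing one a 95% interval from -0.71 to 0.43. The main probe set of SLC25A3 may bind several transcripts by its design (suffix _s_at), and its other one lay below the filter. SLC25A31, the ADP/ATP carrier of testis, lay below the filter as well, with signals of 1.93 to 41.8. Of the ATP-magnesium/phosphate carriers, SLC25A24 had a change of 0.17 ± 0.30, SLC25A25 one of -0.21 ± 0.39, and SLC25A41 lay below the filter.

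Of 7 tested carriers of cofactors and nucleotides none was called by its representing probe set. SLC25A42, which brings coenzyme A into the matrix, had a change of -2.11 ± 0.74 and did not pass (limma, adjusted p = 0.104; all alternatives 0.0314 to 0.201). Its signals were 686, 703, 661, 492 and 284 in control animals 1 to 5 and 254, 225, 180.2, 259 and 10.9 in brain-dead animals 1 to 5. The groups did not overlap, and brain-dead animal 5 lay far below the rest. Without brain-dead animal 5 the change was -1.24 (limma, adjusted p = 0.0520), and with a pseudocount of 64 it was -1.44 and passed (0.0400). Its size thus rested largely on the low signal of that animal.

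SLC25A17 carries coenzyme A and related cofactors across the peroxisomal membrane, and its 3 probe sets disagreed. The brightest 2 had signals of 101030 to 126549 and of 78974 to 118637 in controls, where the highest signals of any probe set were 130253 to 162262 per array. In brain-dead animals these were 91080 to 123840 and 69064 to 90017, with changes of -0.17 ± 0.14 and -0.25 ± 0.15, both short of the threshold. The third, MmugDNA.43541.1.S1_at, had signals of 5737, 4869, 5652, 3658 and 3267 in control animals 1 to 5 and of 2878, 1946, 2023, 2014 and 1667 in brain-dead animals 1 to 5. Its groups did not overlap, and it fell by 1.13 ± 0.23 on the log2 scale (limma, adjusted p = 0.0176), a call that held in all 23 alternatives (range 0.00827 to 0.0479). Whether the bright probe sets were near saturation, and whether they measure SLC25A17 alone, was not tested. One of them represents the gene, so that SLC25A17 counts as not called. The third was singled out with its values known.

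**Figure D3:**
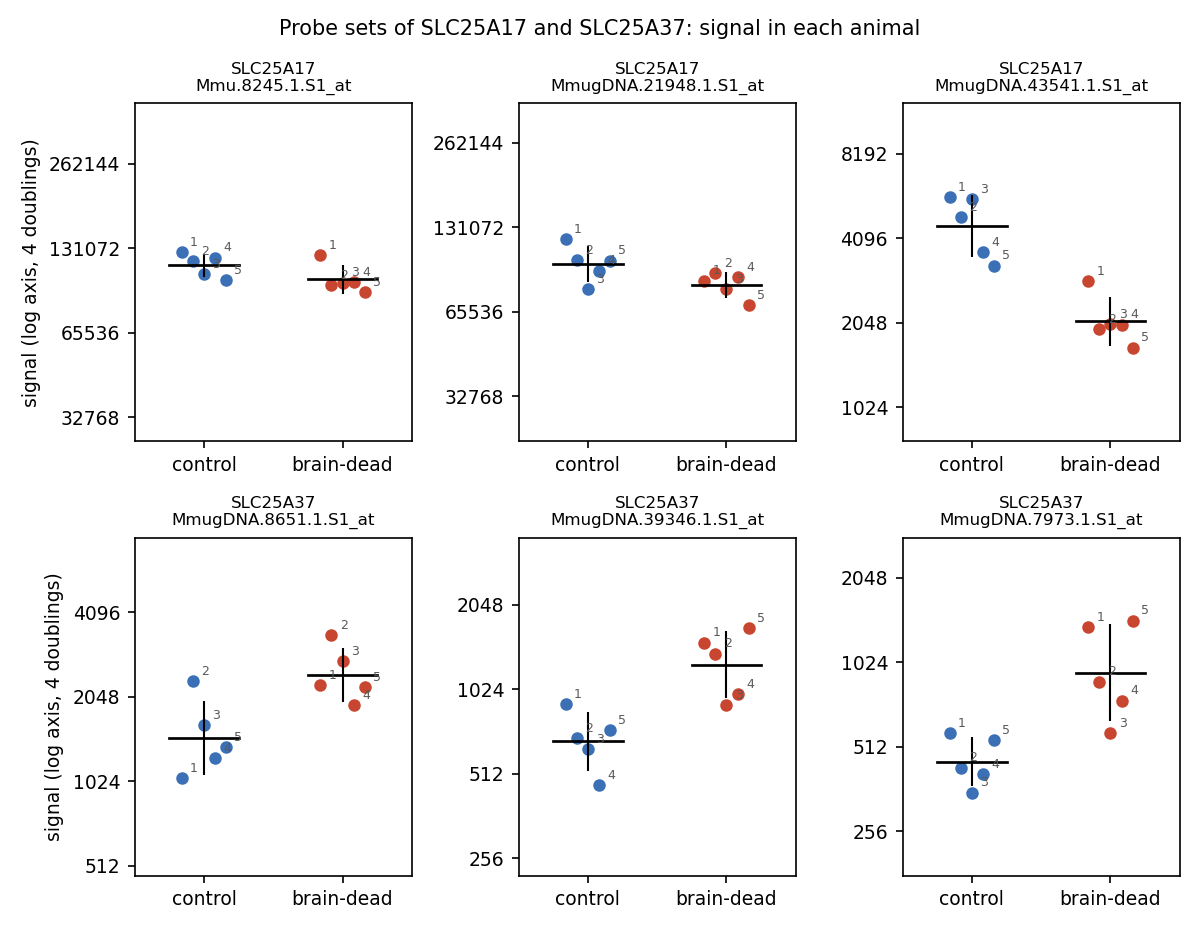
Signal (log axis spanning 4 doublings in every panel) of the 3 probe sets of SLC25A17 and of 3 of the 4 tested probe sets of SLC25A37 in each of 5 control and 5 brain-dead animals; digits give the animal number, horizontal lines the mean and vertical lines ± 1 SD of the log2 signal. The SLC25A17 probe set with signals of up to 5737 fell by 1.13, while the 2 brighter ones had changes of -0.17 and -0.25. The SLC25A37 probe sets share their direction. The SLC25A37 probe set not shown, MmugDNA.26478.1.S1_at, had the smallest change of the 4, 0.58, and did not pass.

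The other cofactor and nucleotide carriers had changes within 0.4 of 0. They were SLC25A26 (S-adenosylmethionine, -0.24), SLC25A33 and SLC25A36 (pyrimidine nucleotides, 0.03 and -0.16) and SLC25A51 (NAD, 0.22). SLC25A52, a near-identical copy of SLC25A51 whose signal may not be separable from it, had a change of 0.00. SLC25A46, an outer membrane protein of mitochondrial fusion and fission, had a change of 0.26 ± 0.18. Of 12 genes with more than 1 tested probe set, 9 had all of one sign, and SLC25A11, SLC25A25 and SLC25A36 did not.

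The other genes of these pathways were described from lists. Of 44 tested genes that work with the carriers, 4 fell and none rose, 9.09% against 6.77% of all genes changed in either direction, and their median change was -0.14. The number was 2 without control animal 2, without brain-dead animal 5 or without the pair numbered 1. Among 6 urea cycle and ornithine enzymes 2 fell, OTC and OAT, where 3.87% of all genes did. OTC, which makes citrulline from the ornithine that SLC25A15 imports, had signals of 16945, 22095, 14134, 14011 and 15643 in control animals 1 to 5 and of 9939, 5710, 7082, 7524 and 4104 in brain-dead animals 1 to 5. The groups did not overlap and the change was -1.31 ± 0.25 (limma, adjusted p = 0.0116; all alternatives 0.00585 to 0.151). A second, dimmer OTC probe set had a change of 0.21, and averaged with it OTC did not pass. OAT, the matrix aminotransferase that uses ornithine, fell by 0.98 ± 0.26 on the log2 scale, a call lost under 14 of 24 alternatives (limma, adjusted p = 0.0455, range 0.0205 to 0.115). The cytosolic enzymes ARG1 (-0.58), ASL (-0.63) and ASS1 (0.02) did not pass.

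Among 8 tested enzymes of the shuttles 1 fell, where 3.87% of all genes did. It was GPD1, the cytosolic enzyme of the glycerol phosphate shuttle. Its change was -1.52 ± 0.30 (limma, adjusted p = 0.0137), and it passed in all 24 alternatives (range 0.00493 to 0.0414). GOT1, the cytosolic transaminase of the malate-aspartate shuttle in which SLC25A13 acts, had a change of -1.60 ± 0.47, short of the threshold (limma, adjusted p = 0.0603). Its signals were 28585, 24191, 3481, 9576 and 8457 in control animals 1 to 5 and 2982 to 4931 in brain-dead animals. Control animal 3 thus lay inside the brain-dead range. The other GOT1 probe set had a change of -1.16 ± 0.43 (limma, adjusted p = 0.122). Of 4 tested carnitine shuttle genes 1 fell, beside the same 3.87% of all genes. CROT, the peroxisomal carnitine octanoyltransferase, fell by 1.74 ± 0.37 on the log2 scale (limma, adjusted p = 0.0200). That call ended without control animal 2 or 3, without brain-dead animal 5 and without the pair numbered 1 (0.0527, 0.0511, 0.0539 and 0.0625; all alternatives 0.00506 to 0.0625). In CROT the groups overlapped, control animal 4 at 1086 lying below brain-dead animal 2 at 1217. The brightest probe sets of CPT1A (0.56 ± 0.56), CRAT (-0.65) and SLC22A5 (-0.18) did not pass. SLC25A20, the carnitine carrier itself, is not analysed here.

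No gene was called among 10 that import carriers into the inner membrane, 8 other gates of the mitochondrial membranes and 6 regulators of mitochondrial biogenesis. Their median changes were 0.01, 0.09 and -0.16. Under some alternatives an import gene was called higher (replicate block, array weights, probe sets averaged per gene, brain-dead animal 1 left out). A regulator was called lower with the replicate block. The regulators had 3 changes below 0 and 3 above, from -0.96 (PPARA) to 0.51 (TFAM). TIMM22, the channel through which carriers enter the inner membrane, had a change of 0.78 ± 0.22 (limma, adjusted p = 0.0553), and the pore VDAC1 one of -0.02 in its brightest probe set. MTCH1, a relative without an SLC25 symbol, had a change of 0.29 ± 0.19.

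**Figure D4:**
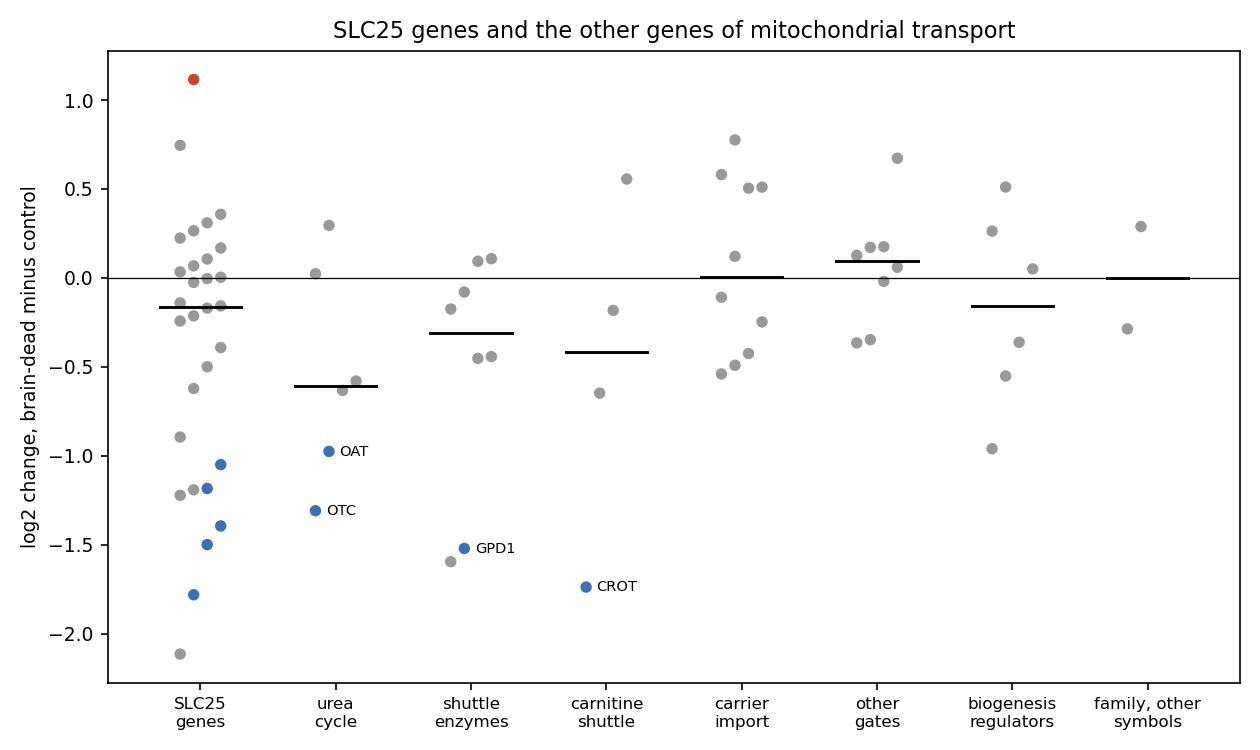
Log2 change (brain-dead minus control) of the 30 tested SLC25 genes and of the tested genes of 7 lists of mitochondrial transport; each point is a gene, horizontal lines are medians, blue points fell and the red point rose at an adjusted p under 0.05. OTC, OAT, GPD1 and CROT fell among the 44 genes of the lists.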

How the data were processed

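Per the labels' protocols, liver RNA was extracted with Trizol, cleaned on columns with DNase and amplified with biotin. What the authors deposited is an intensity for each probe set on each array, computed with MAS5 per the submitters' processing notes (version not given in the sources used here), and the 2% trimmed mean of every array was 1000.1. Signals were analysed as log2 values with no pseudocount and no further normalization. The 99 control probe sets were left out, and 26653 probe sets passed the filter and entered the test: limma 3.58.1 in R 4.3.3 (lmFit, eBayes with trend), group alone, Benjamini-Hochberg adjustment over all of them, threshold 0.05. Names come from the platform annotation; 35 of 36 SLC25 gene IDs were found in the reference gene table. Of 48 carriers listed by role, 12 had no member probe set and are not analysed here. Signals of different genes were added up for the marker lists, where the brightest genes weigh most. SLC25A17 was set beside the highest signal per array. Otherwise probe sets of different genes were not compared in level.

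Members and lists were chosen with earlier results of these data known. Named were SLC25 genes past the threshold, the 6 largest rises and 6 falls, 16 carriers chosen for their role in liver, their other probe sets, and list genes past the threshold with UCP2. Other genes and probe sets named, such as SLC25A17, SLC25A34 and GOT1, were chosen with their values known. Alternatives were 24 other settings (normalization, pseudocount, filter, sex and age, replicate block, eBayes, array weights, averaging of probe sets, arrays left out). The fit was tested on simulated data. The number of arrays limits precision. Plots used Python 3.11.15 with matplotlib 3.10.9.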

Additional observations from a re-analysis of the deposited data

Results flagged for a closer look

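In 3 of the 40 groups looked at (20 named SLC25 genes in 2 groups of 5 animals), the gap of 1 animal to its nearest neighbour took up more of the group's range on the log2 scale than Dixon's critical value of 0.71. Chance gives about 1 in 20. SLC25A42 was 10.9 in brain-dead animal 5 and 180.2 to 259 in the other brain-dead animals (share of the range 0.885). Control animal 4 stood below the other controls in SLC25A40 (931 against 1866 to 2442, share 0.721) and in SLC25A1 (6238 against 12684 to 16838, share 0.715).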

How the results depend on the processing

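The median SLC25 change stayed below 0 and within 0.102 of its main value under all 24 alternatives. That limit is the SD, within groups, of the animals' median deviations over the SLC25 genes. It is no standard error of the median change. The number of SLC25 genes called depended on the arrays used, as did that of all genes (275 to 932 with 1 array left out). Leaving out 1 array at a time gave 2 to 7 genes lower, 0 to 1 higher, 3 to 12 SLC25 probe sets and 2 to 5 pathway genes. Without both animals numbered 1 it was 1 lower (SLC25A13), 0 higher, 3 probe sets and 2 pathway genes. With probe sets averaged per gene 2 SLC25 genes were higher. With a replicate block it was 8 lower, 2 higher and 7 pathway genes. SLC25A10, SLC25A37, SLC25A40 and SLC25A42 passed with it, and it raised the genes called from 666 to 1266 of 9835. Nothing in the labels ties same-numbered animals together, so the numbers were not taken as pairs. The deviations of same-numbered animals nevertheless correlated at 0.38, 0.06, 0.13, 0.09 and 0.13, all above 0. Whether same-numbered animals shared any step of handling was not tested. SLC25A13 and SLC25A15 passed whichever array was left out. The causes were not tested.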

Other observations

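Sex was considered for the 30 tested SLC25 genes through the interaction of group with sex. No gene passed (limma, 0 of 26653 probe sets past the adjusted threshold and 1015 at an unadjusted p under 0.05), and 2 SLC25 genes had an unadjusted p under 0.05. SLC25A22 had a change of -0.80 in females and 0.96 in males (limma, difference 1.76 ± 0.46, unadjusted p = 0.00247, adjusted p = 1.00). SLC25A25 had a change of -1.27 in females and 0.75 in males in its brightest probe set (limma, difference 2.02 ± 0.58, unadjusted p = 0.00509, adjusted p = 1.00), while its other probe sets had the opposite order, 0.34 and 0.36 in females and -0.51 and -0.27 in males. The dimmer SLC25A11 probe set had a change of -1.43 in females and 0.60 in males (limma, unadjusted p = 0.00174, adjusted p = 1.00), and the brighter one 0.11 and 0.03. Each sex held 2 or 3 animals per group.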
